A study of Mus musculus with 121 samples.

Results

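Gene expression in the substantia nigra (SN) was compared between mice homozygous for a conditional Gdnf allele recombined by Nestin-Cre (HOM) and their wild-type littermates (WT). The libraries were chosen by their column names in the count table, which mark Nestin-Cre substantia nigra and either HOM or WT, and they are 11 of 121 libraries, 5 HOM and 6 WT. The nigra library of mouse M4575 was left out, because the labels of this mouse give HOM in nigra and striatum and WT in prefrontal cortex. The study asked how dopamine systems respond when GDNF is raised from its own gene, and it sequenced RNA from prefrontal cortex (PFC), striatum (STR) and nigra. It used 21 mice with Nestin-Cre (56 libraries) and 22 mice of the same allele given Cre by a viral vector in the striatum (AAV-Cre, 65 libraries).

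All mice of the comparison were male, untreated and 2 months old by their labels, on a mixed 129Ola/ICR/C57bl6 background, with the strain label GDNF cKU x Nestin-Cre. WT animals had the genotype wt/wt, and their strain label includes Nestin-Cre too. HOM animals were cKU/cKU, and 7 heterozygous mice (wt/cKU, HET) are given beside them. On the cKU allele, Cre replaces the native end of the Gdnf transcript, which carries sites of negative regulation, so that more protein is made in cells that already express the gene. Nestin-Cre acts in neural precursors before birth, so neurons, astrocytes and oligodendrocytes descend from recombined cells, whereas microglia have another origin.

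GDNF is a secreted factor that binds the co-receptor GFRA1 on the cell surface and signals through the receptor tyrosine kinase RET. In the adult brain it is made mainly by interneurons of the striatum, and dopamine neurons of the nigra, which send their axons there, carry both receptors. The nigra also holds GABA neurons of its reticular part, many oligodendrocytes, astrocytes and microglia, and it borders on the subthalamic nucleus, the mammillary region, the red nucleus and the ventral tegmental area.

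Reads of 11 libraries were counted per gene in annotated exons, and levels are given in cpm, a gene's count scaled to the total of its library. Total counts ran from 13769516 to 22399651 (median 15487994) in WT, from 11958680 to 21951864 (median 17102452) in HOM and from 15970912 to 25305502 (median 18971257) in HET libraries. Of 24412 genes in the table, 14849 had at least 1 cpm in at least 3 of the 18 nigra libraries and were tested. To see whether any library had been entered again, libraries of the same genotype were compared in pairs, and the mean chi-square per gene was 6.85 to 89.8 over 46 pairs, above counting error in each. Fold changes are log2 ratios of HOM over WT, with a median standard error (SE) of 0.150 over all genes.

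The tissue label was checked against dopamine neuron genes. Slc6a3, the dopamine transporter, was at 548 to 1569 cpm in the 11 libraries (median 1098), against medians of 0.417 cpm in STR and 0.982 cpm in PFC. Th, the rate-limiting enzyme of dopamine synthesis, had a median of 640.4 cpm against 12.4 in STR and 13.2 in PFC. The transcription factor Pitx3, which is needed for nigral dopamine neurons, had a median of 5.10 cpm in nigra and 0.0450 cpm in STR. Drd1, a dopamine receptor of striatal projection neurons, was low, with a median of 2.90 cpm against 353 in STR. None of these markers went against the label in any of the 11 libraries.

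Several libraries stood apart from the rest within their groups. On the first principal component of the 18 nigra libraries (26.2% of the variance), M4329 and M4394 among WT (45.9 and 35.3) and M4393 among HOM (43.3) lay far from the others, whose scores ran from -30.4 to 20.6. These 3 libraries were rich in meningeal and fibroblast genes (10 genes, led by Ptgds, the prostaglandin D synthase of the meninges), which summed to 9017 cpm in M4329, 7784 cpm in M4394 and 12790 cpm in M4393. The other 4 WT libraries summed to 1115 to 2348 cpm and the other HOM libraries to 5075 (M4569), 3645 (M4568), 1673 (M4627) and 1449 cpm (M4580). Among HET libraries the highest sum was that of M4578, 7642 cpm, close to that of M4394. On the second component (24.4%), HOM M4627 and HET M4628 lay at one end (43.4 and 43.2) and WT M4529 at the other (-41.2). M4627 also had the lowest summed ribosomal protein counts of the 11 libraries, 10300 cpm, and the largest excess of long over short transcripts, 0.384 on the log2 scale between the longest and shortest quartile of genes. The long non-coding RNA Meg3, chosen after its values were seen, was at 6557 cpm in HOM M4580, 5961 in HOM M4627 and 5977, 6526 and 6134 in HET M4577, M4606 and M4628, against 1300 to 2793 in the other 13 Nestin-Cre nigra libraries, all 6 WT among them. In AAV-Cre nigra Meg3 was at 3915 to 6165 cpm in WT and 4286 to 6365 in HOM libraries. Some results are also given without the 5 Nestin-Cre nigra libraries high in Meg3, which leaves 3 HOM and 6 WT libraries. In the HET group, M4566 held 2038 cpm of striatal projection neuron genes against at most 392.4 in the other HET libraries. The part of these differences in the results was not tested. Many list medians and some genes are given with and without these libraries. Other fold changes, such as those of Slc6a3, Aldh1a1 and Gad1, are given with all libraries only.

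Across the nigra, 0 of 14849 genes (0%) differed between HOM and WT at an adjusted p under 0.1 in edgeR's quasi-likelihood F test with Benjamini-Hochberg adjustment. An unadjusted p under 0.05 was reached by 707 genes (4.76%), 302 of them higher (2.03%) and 405 lower (2.73%) in HOM. Over all tested genes the median log2 fold change was -0.02, with quartiles of -0.13 and 0.12, and 6833 genes (46.0%) lay above 0 and 8016 below. In 44 genes (0.296%) the HOM libraries did not overlap the WT libraries, 22 with HOM above and 22 with HOM below. The lowest adjusted p was that of Itgam, 0.107, and the p of single genes given hereafter are from the same edgeR fit. The count depended on the tool. A likelihood ratio test in edgeR, run with a dispersion trend over level and no dispersion of each gene's own, called 141 genes (102 higher, 39 lower). Its lowest adjusted p was that of Ttr (9.9e-38), whose WT mean rests on M4394 and M4545. DESeq2 called 1, Itgam, which the likelihood ratio test called as well. Single libraries moved the count at an unadjusted p under 0.05 to 321 without HOM M4627, 358 without HOM M4580, 373 without WT M4529 and 411 without WT M4545, and to 1341 without HOM M4393. It was 1871 without M4329, M4393 and M4394 (1 gene called, Itgam), 345 without M4627 and M4628 and 301 without the 5 libraries high in Meg3 (0 genes called in both).

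Gdnf itself, the targeted gene (Entrez 14573, mm10 chromosome 15, 7810048 to 7837580), was scarce in the nigra and higher in HOM than in WT mice. In WT it was at 0.41 cpm in M4329, 0.51 in M4394, 0.36 in M4529, 0.29 in M4545, 0.52 in M4609 and 0.49 in M4612. In HOM it was at 0.84 cpm in M4393, 0.77 in M4568, 0.60 in M4569, 0.94 in M4580 and 0.64 in M4627. All 5 HOM libraries lay above all 6 WT libraries. The means were 0.757 ± 0.138 cpm in HOM (SD, n = 5) and 0.429 ± 0.0941 cpm in WT (SD, n = 6), a ratio of 1.76 or 0.82 on the log2 scale. A two-sided exact permutation test over the libraries gave p = 0.00433, the smallest value that 5 against 6 libraries allow. These levels rest on 10 to 16 counts per HOM library and 4 to 11 per WT library, which is below the filter of 1 cpm, so Gdnf had no place among the genes tested in edgeR. When the filter was lifted, edgeR's quasi-likelihood F test gave it a log2 fold change of 0.76 (SE 0.38), with an unadjusted p of 0.0607 and an adjusted p of 0.777. The likelihood ratio test gave an unadjusted p of 0.111. In the nigra library of M4575 Gdnf was at 0.38 cpm, within the WT range.

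In HET mice Gdnf was spread widely, at 0.31 cpm in M4564, 0.53 in M4577, 0.30 in M4578, 0.63 in M4579, 0.67 in M4606, 0.47 in M4628 and 1.66 in M4566, the library with striatal genes. HET libraries overlapped both WT (exact permutation p = 0.248) and HOM (exact permutation p = 0.697). In other regions of Nestin-Cre mice the groups overlapped: STR had 6.93 ± 1.54 cpm in HOM (SD, n = 5) and 5.69 ± 1.15 in WT (SD, n = 6). The exact permutation test gave p = 0.182 for STR and p = 0.176 for PFC, where HOM was at 0.245 and WT at 0.481 cpm. In the nigra of AAV-Cre mice HOM exceeded WT by a ratio of 1.49, with an exact permutation p of 0.292. The counts cover annotated exons including the native 3′UTR, which the mRNA of the recombined allele lacks, so the levels in HOM and WT mice are not counted over the same stretch of transcript.

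Of Ret, Gfra1, Ncam1 and Sdc3, which bind GDNF or signal for it, Ret had the log2 fold change nearest to 0 and Sdc3 the one farthest from it. Ret (Entrez 19713, chromosome 6, 118151748 to 118197744), the signalling receptor, was at 310 to 568 cpm in WT (median 339.9). In HOM it was at 285 cpm in M4393, 374 in M4568, 473 in M4569, 524 in M4580 and 319 in M4627. M4393 lay below the WT range and the other HOM libraries within it, and the log2 fold change was -0.00 (SE 0.21, adjusted p = 0.996), with a sign that turned under DESeq2's scaling (0.0086). Gfra1, the co-receptor that binds GDNF, was at 84.7 to 114 cpm in WT and at 76.4, 90.6, 105.7, 107.9 and 86.6 cpm in M4393, M4568, M4569, M4580 and M4627, a log2 fold change of -0.11 (SE 0.10). Ncam1, an adhesion molecule that also binds GDNF with GFRA1, had a log2 fold change of 0.07 (SE 0.12), and it fell below 0 without M4580 (-0.03) and without the 5 libraries high in Meg3 (-0.10). Sdc3, a heparan sulfate proteoglycan that binds GDNF, was at 231 to 293 cpm in WT and at 288, 297, 262, 351 and 403 cpm in the HOM libraries in the same order. M4568, M4580 and M4627 lay above every WT library and the other HOM libraries among them, with a log2 fold change of 0.25 (SE 0.11, unadjusted p = 0.0344, adjusted p = 0.802) that was 0.10 without the 5 libraries high in Meg3. Per kilobase of transcript, Ret was at 53.8 cpm in HOM and 52.2 in WT, Sdc3 at 64.4 and 52.3, Ncam1 at 50.3 and 46.5, and Gfra1 at 19.7 and 20.6.

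Of 13 GDNF family ligands and receptors, 7 were tested, 4 above and 3 below 0, with a median log2 fold change of 0.07 against -0.02 over all genes. The split was 5 above and 2 below with DESeq2's scaling, and the median turned to -0.03 without M4580 and to -0.10 without the 5 libraries high in Meg3. The related ligand Nrtn (neurturin) was at 1.34 cpm in WT and 1.65 cpm in HOM on average. Gdnf, Artn, Pspn, Gfra3, Gfral and Gdf15 were each under 1 cpm.

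**Figure D1:**
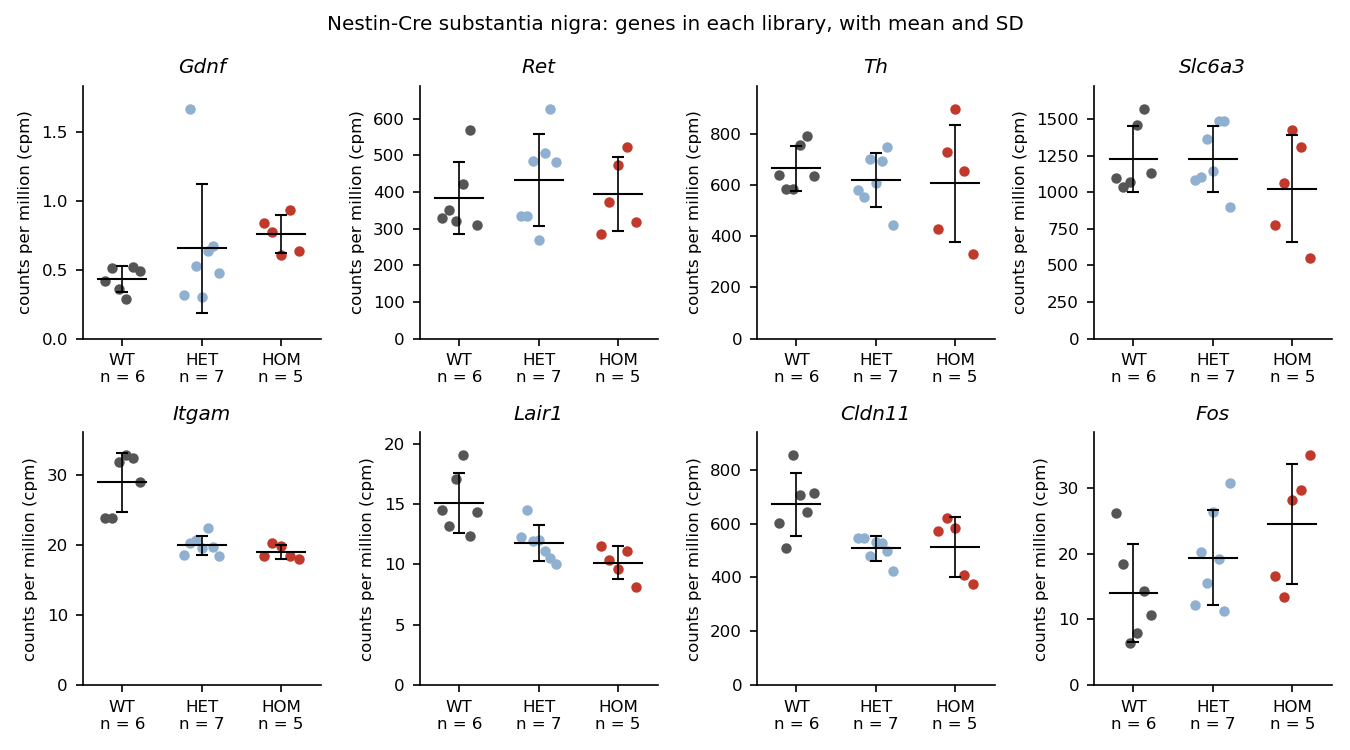
Level in cpm of 8 genes in each Nestin-Cre nigra library, with 1 point per mouse, a line at the group mean and bars for the SD, for WT (n = 6), HET (n = 7) and HOM (n = 5). Gdnf lies at 0.60 to 0.94 cpm in HOM and 0.29 to 0.52 in WT, and Itgam at 18.0 to 20.3 in HOM and 23.8 to 32.8 in WT, whereas Th and Slc6a3 overlap between the groups.

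Genes of dopamine handling did not pass the test, and the spread of single genes was not tested. Th (Entrez 21823, chromosome 7) was at 584 to 793 cpm in WT (median 639) and at 429 cpm in M4393, 728 in M4568, 898 in M4569, 654 in M4580 and 329 in M4627. The lowest and the highest of the 11 libraries were both HOM, and the log2 fold change was -0.17 (SE 0.20, adjusted p = 0.831), and 0.02 without the 5 libraries high in Meg3. Slc6a3 was at 1037 to 1569 cpm in WT (median 1115) and at 775, 1065, 1427, 1309 and 548 cpm in M4393, M4568, M4569, M4580 and M4627. M4393 and M4627 lay below every WT library and the others within the WT range, with a log2 fold change of -0.30 (SE 0.21, adjusted p = 0.802). Aldh1a1, which oxidises dopamine's aldehyde and marks ventral nigral neurons, had a log2 fold change of -0.38 (SE 0.22), with M4627 lowest at 335 cpm. Qdpr, which recycles the cofactor of tyrosine hydroxylase, had -0.33 (SE 0.17). Of the 13 genes of dopamine synthesis, storage, uptake and breakdown, 5 were above and 8 below 0. An unadjusted p under 0.05 was reached by 0 of them, against 4.76% of all genes, and their median was -0.17 against -0.02. Their summed level was 4465 to 5873 cpm in WT and 2558 (M4627), 3777 (M4393), 4632 (M4568), 4800 (M4580) and 5937 cpm (M4569) in HOM, and the list's median was -0.04 without M4627 and M4628 and -0.02 without the 5 libraries high in Meg3. In bulk tissue, fewer dopamine neurons in a piece and less RNA per neuron cannot be told apart.

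Of 12 transcription factors that specify and maintain midbrain dopamine neurons, 10 were above and 2 below 0, with a median of 0.11. An unadjusted p under 0.05 was reached by 0 of the 12, against 4.76% of all genes. The median was 0.03 without WT M4612, and without the 5 libraries high in Meg3 it was 0.01 with 6 above and 6 below 0. Nr4a2, which drives Th and Slc6a3, was at 23.7 to 55.0 cpm in WT and at 31.6, 35.9, 38.0, 69.4 and 43.4 cpm in M4393, M4568, M4569, M4580 and M4627. M4580 was the highest of the 11 libraries and the others lay within the WT range, and the log2 fold change of 0.18 (SE 0.22) turned to -0.04 without it and to -0.11 without the 5 libraries high in Meg3, where Ebf3 turned to -0.08. En1, a homeobox factor for the survival of these neurons, had 0.04 (SE 0.20), Ebf3 0.32 (SE 0.24), Lmx1a 0.43 (SE 0.29) and Foxa2 0.35 (SE 0.20). Sox6, which marks the ventral nigra, had -0.20 (SE 0.13), and Otx2, a factor of the ventral tegmental area, -0.16 (SE 0.16).

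Among 18 other dopamine neuron genes, 7 were above and 11 below 0 with a median of -0.17, which turned to 0.01 without M4329, M4393 and M4394 and was -0.02 without the 5 libraries high in Meg3. Aldh1a7, a relative of Aldh1a1, had a log2 fold change of -0.58 (unadjusted p = 0.0260) and Klhl1, a regulator of calcium channels, -0.31 (unadjusted p = 0.0482). They were the 2 of 18 genes lower at an unadjusted p under 0.05, against 2.73% of all genes. The nicotinic receptor subunit Chrna6 had -0.18, the imprinted gene Dlk1 0.16 and the vesicular glutamate transporter Slc17a6, which some dopamine neurons use, 0.21. Of 10 channels that pace dopamine neurons, such as Cacna1d and Hcn2, 7 were above and 3 below 0, with a median of 0.14, and 5 were above and 5 below without the 5 libraries high in Meg3 (median 0.00). Of 9 dopamine and adenosine receptors 7 were tested, 1 above and 6 below 0, with a median of -0.13 that turned to 0.03 without M4329, M4393 and M4394. The autoreceptor Drd2 had -0.25 (SE 0.21), the adenosine receptor Adora2b -0.14 and Adora1 0.08. Without the 5 libraries high in Meg3, Chrna6 (0.04), Adora2b (0.18) and Adora1 (-0.04) changed sign. In 13 Parkinson disease genes the median was -0.04, with 5 above and 8 below 0.

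Itgam (Entrez 16409, chromosome 7, 128062640 to 128118491), the CD11b subunit of complement receptor 3 on microglia, was the gene closest to the threshold. In WT it was at 23.9 cpm in M4329, 23.8 in M4394, 31.9 in M4529, 32.8 in M4545, 32.5 in M4609 and 29.0 in M4612. In HOM it was at 18.5 cpm in M4393, 20.3 in M4568, 19.8 in M4569, 18.5 in M4580 and 18.0 in M4627. All 5 HOM libraries lay below all 6 WT libraries, at 19.03 ± 0.984 cpm in HOM (SD, n = 5) and 29.0 ± 4.19 in WT (SD, n = 6). The log2 fold change was -0.65 (SE 0.11, unadjusted p = 7.2e-06, adjusted p = 0.107), and M4575 had 20.9 cpm. DESeq2 called it (adjusted p = 0.00037), as did edgeR without WT M4329 (-0.71, adjusted p = 0.0290) and without WT M4394 (-0.71, adjusted p = 0.0234), while its adjusted p was 0.739 with HOM and WT libraries alone in the fit and 1.00 without the 5 libraries high in Meg3 (-0.59). HET mice, compared with the same WT libraries, had 18.4 to 22.4 cpm and a log2 fold change of -0.57 (adjusted p = 0.161).

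Other genes of microglia and blood-derived cells also had log2 fold changes below 0 without passing. Lair1 (Entrez 52855, chromosome 7), an inhibitory collagen receptor of immune cells, was at 12.4 to 19 cpm in WT (median 14.4) and at 11.5, 10.3, 9.58, 11.1 and 8.11 cpm in M4393, M4568, M4569, M4580 and M4627. All HOM libraries lay below the WT range, with a log2 fold change of -0.62 (SE 0.14, unadjusted p = 0.000292, adjusted p = 0.802), and a fit of all 3 regions of Nestin-Cre mice, which takes libraries of the same mouse as independent, called it (-0.60, adjusted p = 0.0421). Hcls1, an adaptor of blood-lineage cells, had -0.49 and overlapped. All 14 microglia genes tested had log2 fold changes below 0, with a median of -0.32 against -0.02 over all genes, and all 14 also lay below 0 with DESeq2's scaling. Of these, 5 had an unadjusted p under 0.05, against 2.73% of all genes lower at that p: Itgam, C1qa (complement C1q chain, -0.41), Cx3cr1 (fractalkine receptor, -0.30), Csf1r (receptor of the growth factor on which microglia depend, -0.28) and Tmem119 (-0.28). The list's summed level was 722.3 to 1059 cpm in WT and 504 (M4627), 566.9 (M4580), 741.2 (M4393), 798.1 (M4568) and 849.7 cpm (M4569) in HOM. The sums of the groups overlapped, M4580 and M4627 lay below every WT library, and no marker of the list was at 0. Over the 18 nigra libraries, the 5 high in Meg3 had the 5 lowest sums (HET M4577 530, M4606 521.1 and M4628 505.3 cpm), and the next was 699.4 cpm in HET M4579. Without these 5, the genes of the list split into 3 above and 11 below 0 with a median of -0.15, and under the other alternatives the median stayed between -0.43 and -0.24. In HET mice, with the same WT libraries and 3 of these 5 among them, the list's median was -0.46, and in AAV-Cre nigra -0.06. Microglia do not descend from the precursors in which Nestin-Cre acts.

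All 23 oligodendrocyte and myelin genes had negative log2 fold changes, also with DESeq2's scaling, with a median of -0.35 against -0.02 over all genes, and 8 had an unadjusted p under 0.05, against 2.73% of all genes lower at that p. Cldn11 (Entrez 18417, chromosome 3, 31149920 to 31164326), which forms the tight junctions between myelin layers, was at 509.5 to 853 cpm in WT (median 675) and at 573 cpm in M4393, 619 in M4568, 584 in M4569, 409.8 in M4580 and 376.5 in M4627. M4580 and M4627 lay below all WT libraries and the other HOM libraries among them, with WT M4394 and M4329 lowest in their group (509.5 and 604 cpm). Its log2 fold change was -0.43 (SE 0.15, unadjusted p = 0.0109, adjusted p = 0.802). The tetraspanin Tspan2 had -0.47, the phosphodiesterase Cnp -0.41, the vesicle protein Mal -0.52, Fa2h, which hydroxylates myelin lipids, -0.37, Mobp -0.34 and Ermn -0.56, and Mbp, the most abundant of the list, -0.29. The summed level was 22550 to 39650 cpm in WT (median 33300) and 19200 (M4627), 23880 (M4580), 24730 (M4393), 29060 (M4569) and 30410 cpm (M4568) in HOM. All WT libraries but M4329 and M4394 lay above every HOM library. The list's median was -0.51 without M4329, M4393 and M4394 and -0.26 without M4627 and M4628. Without the 5 libraries high in Meg3 it was -0.19, with 2 genes above and 21 below 0, and Cldn11 had -0.21. The median was -0.33 in HET against the same WT libraries and 0.05 in AAV-Cre nigra.

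Oligodendrocyte precursor genes lay closer to the rest, with 2 of 10 above and 8 below 0 and a median of -0.13, among them the growth factor receptor Pdgfra (-0.23), Gpr17 (-0.27) and the lineage factor Olig2 (-0.23). Of 14 astrocyte genes, 2 were above and 12 below 0, with a median of -0.22 and the same sign of the median with DESeq2's scaling. Sox9, a transcription factor of astrocytes, was at 27.8 to 36.6 cpm in WT and at 23.8, 26.0, 26.6, 30.4 and 23.6 cpm in M4393, M4568, M4569, M4580 and M4627. Every HOM library but M4580 lay below all WT libraries, with a log2 fold change of -0.31 (unadjusted p = 0.0103). The astrocyte sum was 7656 to 10040 cpm in WT and 6374 (M4627), 6835 (M4580), 8023 (M4569), 8163 (M4393) and 8267 cpm (M4568) in HOM, led by the glutamate transporter Slc1a2. The astrocyte median was -0.12 and the precursor median -0.09 without the 5 libraries high in Meg3, and they were -0.33 and -0.23 without M4329, M4393 and M4394. The 13 endothelial and mural genes had 7 above and 6 below 0 and a median of 0.00, which was 0.31 without M4329, M4393 and M4394 and -0.07 without M4569. Their sum was 1314 cpm in WT M4329 and 955.9 in WT M4394, against at most 565.5 in the other WT libraries.

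**Figure D2:**
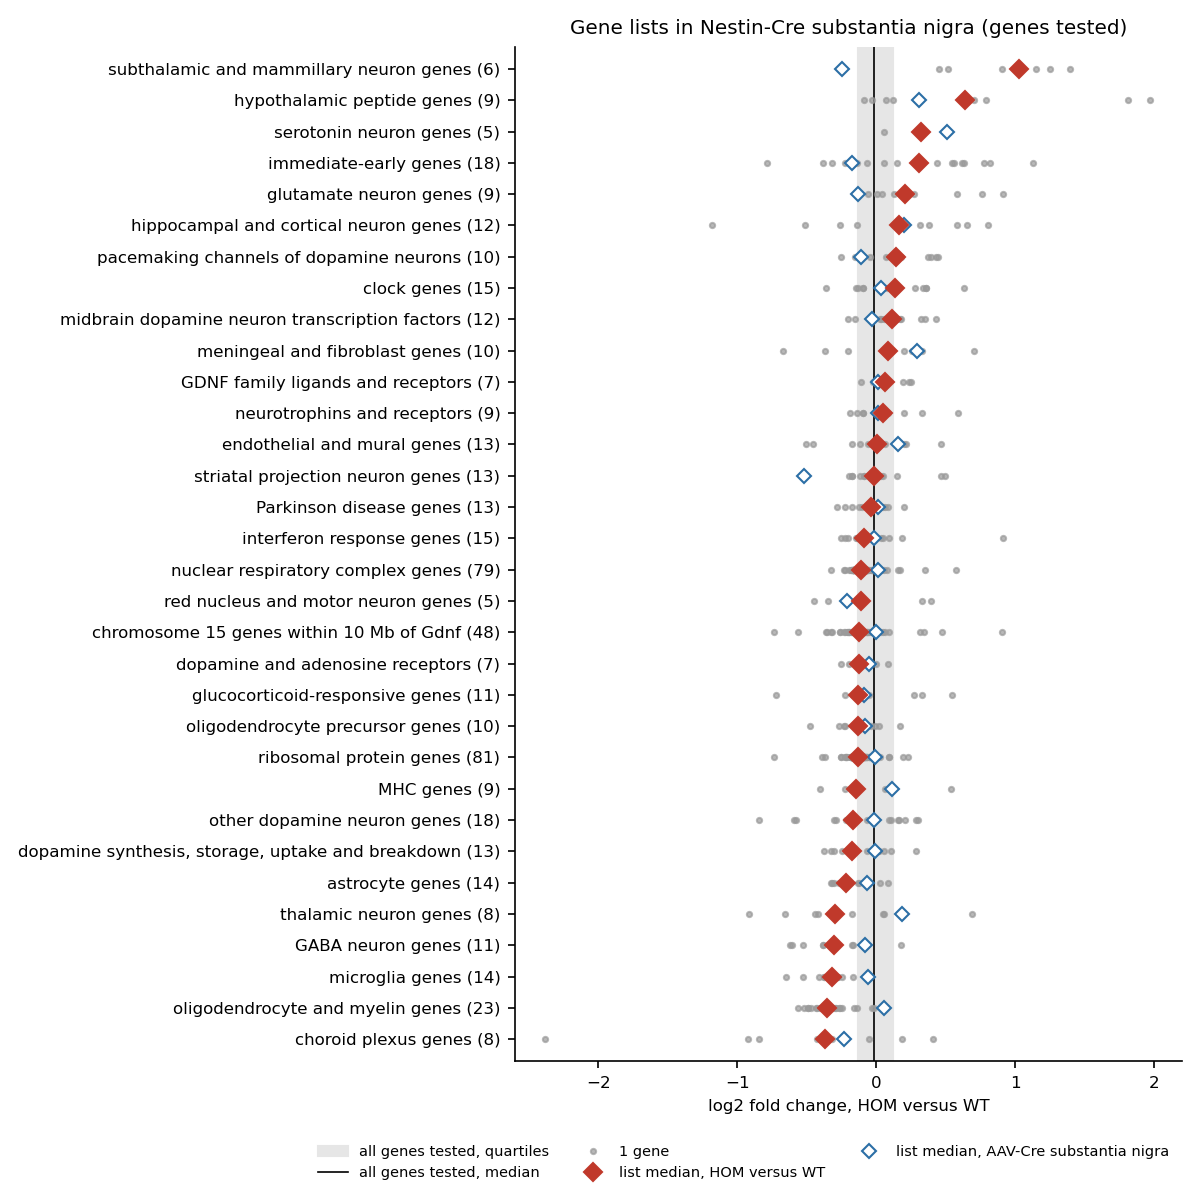
Median log2 fold change of each gene list in HOM against WT nigra of Nestin-Cre mice, with a dot for each gene, the number of tested genes beside each list, the list's median in AAV-Cre nigra, and a line and band at the median and quartiles of all tested genes (-0.02, -0.13 and 0.12). Subthalamic and mammillary genes (1.03) and hypothalamic peptide genes (0.64) lie farthest to the right, and choroid plexus (-0.37), myelin (-0.35) and microglia genes (-0.32) to the left among lists of at least 5 genes; none of the medians of these lists changed sign under an alternative scaling.

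The 20 genes with the lowest p that reached 1 cpm in a group and had every HOM library on 1 side of the WT mean split into 7 higher (log2 fold changes of 0.26 to 1.57) and 13 lower (-0.87 to -0.28). Apart from Itgam their adjusted p was 0.802, and in 9 the groups did not overlap, against 44 of all 14849 genes (0.296%) and 42 of the 1607 genes that met the same conditions on level and side (2.61%), which favour such genes. Ranking by p of the same contrast favours them too, so the 9 follow largely from how the 20 were taken. Dkk2 (Entrez 56811, chromosome 3), a secreted modulator of WNT signalling, had the largest difference, 1.57 (SE 0.36, unadjusted p = 0.000387). It was at 0.268 to 1.24 cpm in WT (median 0.620) and at 2.51, 2.08, 1.21, 2.92 and 2.32 cpm in M4393, M4568, M4569, M4580 and M4627. All HOM libraries but M4569 lay above the WT range, and the fit of all 3 regions, in which libraries share mice, called Dkk2 (1.60, adjusted p = 0.0421). Zeb2, a transcription factor of oligodendrocytes, microglia and neurons, was at 129.7 to 149 cpm in WT and 89.9 to 123 in HOM without overlap, with a log2 fold change of -0.42 (SE 0.10). Arhgap6, a GTPase-activating protein, had -0.52, with HOM M4580 (22.5 cpm) inside the WT range of 20.2 to 26.0 cpm and the rest of HOM below it. Fgf10, a growth factor also made in the brain, had -0.56, and Kntc1, a kinetochore protein, -0.81, both without overlap.

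Among the genes above 0, Hdhd3, a gene of the haloacid dehalogenase family on chromosome 4, was at 4.80 to 5.45 cpm in WT and at 5.85, 10.5, 6.46, 7.66 and 9.34 cpm in M4393, M4568, M4569, M4580 and M4627. All HOM libraries lay above all WT libraries, with a log2 fold change of 0.58 (unadjusted p = 0.00190). Rtbdn, retbindin, a riboflavin-binding protein, was at 0.925 to 3.13 cpm in WT and at 2.17, 4.46, 4.65, 7.31 and 5.74 cpm in the same order, so that M4393 alone overlapped WT. Its log2 fold change was 1.20 (SE 0.33), against -0.09 in AAV-Cre nigra. In other regions of Nestin-Cre mice it had 1.25 in STR (adjusted p = 0.956) and 1.20 in PFC (adjusted p = 0.0580), by the same edgeR test. Of the 11 mice, 10 also gave the STR and 9 the PFC libraries, so these values are not from separate animals. Akap9, a scaffold of protein kinase A at the Golgi and centrosome, had 0.38, Tti2, part of a complex that stabilises large kinases, 0.26, and the tight junction gene Marveld2 0.75. BC037032, on chromosome 15 near Gdnf, had 0.90, with 0.463 to 0.789 cpm in WT and 0.994 to 1.53 in HOM, so that it passed the filter of 1 cpm through 4 HOM libraries and HET M4606 and no WT library. Further genes of the 20, each below 0, were Dock10 (-0.41), Nras (-0.28), Gcnt1 (-0.87), Nwd2 (-0.45), 3110035E14Rik (-0.50) and Pex5l (-0.47).

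Genes of neurons around the nigra differed from library to library. All 6 subthalamic and mammillary genes had log2 fold changes above 0, also with DESeq2's scaling, 2 of them at an unadjusted p under 0.05, against 2.03% of all genes higher at that p. The median of 1.03 was 1.499 without M4329, M4393 and M4394, 0.62 without M4627 and 0.18, with 5 above and 1 below 0, without the 5 libraries high in Meg3. Foxb1, a forkhead factor of the mammillary bodies, was at 2.80 to 11.8 cpm in WT and at 15.6, 4.75, 4.05, 19.4 and 39.8 cpm in M4393, M4568, M4569, M4580 and M4627. M4393, M4580 and M4627 lay above the WT range and the other 2 inside it, with a log2 fold change of 1.25 (SE 0.56, unadjusted p = 0.0366) that was 0.23 without those 5 libraries. Barhl1, a factor of both regions, had 1.15 (unadjusted p = 0.0248), and Sim1, a factor of the mammillary region, 0.91. The sum was 13.3 to 79.6 cpm in WT (median 42.5) and 35.8 (M4569), 46.2 (M4568), 73.3 (M4393), 102 (M4580) and 134 cpm (M4627) in HOM, and no gene of the list was at 0. Hypothalamic peptide genes (9 of 13 tested) were above 0 in 7, with a median of 0.64 that fell to 0.13 without M4580 and 0.12 without those 5 and was 0.88 without M4568. Cartpt, an appetite-related peptide, was at 3.13 to 8.63 cpm in WT and at 13.2, 3.45, 5.09, 35.1 and 54.9 cpm in the HOM libraries in the same order, with a log2 fold change of 1.81 (unadjusted p = 0.00403) that was 0.21 without those 5. Trh had 0.71 and Hcrt, the orexin precursor, 1.97, the latter from levels under 1 cpm in all WT libraries and high values in M4393 (1.59) and M4569 (1.26). Hcrt, which counts in the list's split and median, thus passed the filter of 1 cpm through HOM and HET libraries and no WT library.

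GABA neuron genes lay the other way, with 1 of 11 above and 10 below 0 and a median of -0.31, negative under every alternative, from -0.48 without M4329, M4393 and M4394 to -0.15 without the 5 libraries high in Meg3. Gad1, which makes GABA, was at 312.4 to 728.5 cpm in WT (median 632.5) and at 302.8, 474.6, 595.9, 333.8 and 301.7 cpm in M4393, M4568, M4569, M4580 and M4627. M4393 and M4627 lay just below the lowest WT library and the rest of HOM in the WT range, and WT M4329 and M4394 were low too (324.4 and 312.4 cpm). Its log2 fold change was -0.52 (SE 0.26, unadjusted p = 0.0556), and that of Sox14, a factor of midbrain GABA neurons, was -0.62. The sum was 1919 to 3334 cpm in WT and 1814 (M4580), 1886 (M4627), 2018 (M4393), 2514 (M4568) and 2804 cpm (M4569) in HOM. Of 9 glutamate neuron genes 8 were above 0 (median 0.21), among them the receptor subunit Grin2b (0.76), and without those 5 libraries 4 were above 0 (median -0.03); without M4569 the median was 0.31. All 5 serotonin neuron genes were above 0 with a median of 0.32, which was 0.03 without HOM M4569 and 0.64 without WT M4545, the libraries richest in them (158.4 and 139.3 cpm summed). Hippocampal and cortical genes (12 of 14 tested, median 0.17, and 0.02 without HOM M4393 and 0.42 without M4329, M4393 and M4394), thalamic genes (8, median -0.30, and 0.00 without WT M4612 and -0.41 without M4329, M4393 and M4394) and red nucleus and motor neuron genes (5 of 9, median -0.11, and -0.67 without HOM M4569 and 0.12 with all 3 regions in 1 fit) had members on both sides. The 13 striatal genes had a median of -0.02 (-0.13 without M4569 and 0.09 without M4329, M4393 and M4394), and 0 of 4 noradrenaline neuron genes passed the filter. The part of the dissection in these lists was not tested.

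Immediate-early genes, which neurons switch on within minutes of activity, were above 0 in 12 of 18 tested, with a median of 0.31 and the same sign under every alternative. Fos was at 6.40 to 26.2 cpm in WT and at 16.6, 13.5, 28.3, 29.7 and 35.0 cpm in M4393, M4568, M4569, M4580 and M4627. The last 3 lay above the WT range, with a log2 fold change of 0.78 (SE 0.33, unadjusted p = 0.0306). Fosb had 1.12, Sik1 0.54 and Ier2 0.44, each at an unadjusted p under 0.05, while Arc, the most abundant, had -0.32. Including Fos, 4 of the 18 genes were higher at that p, against 2.03% of all genes. The sum was 161.9 to 187 cpm in 4 WT libraries and 296.5 and 361 in WT M4329 and M4394, against 222.9 (M4393), 247.1 (M4568), 273.1 (M4569), 303.3 (M4580) and 351.8 cpm (M4627) in HOM. Without M4329, M4393 and M4394 the median was 0.95, and without M4580 it was 0.12. Without the 5 libraries high in Meg3 it was 0.18. It was 0.33 in HET against the same WT libraries and -0.18 in AAV-Cre nigra.

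Clock genes had 10 of 15 above 0 (median 0.13, and 0.02 with the HOM library of M4575 kept), and glucocorticoid-responsive genes 3 of 11 (median -0.13, 0.01 without WT M4529 and 0.08 without the 5 libraries high in Meg3). Interferon response genes had 5 of 15 above 0 (median -0.09) and MHC genes 3 of 9 (median -0.14), and both medians turned positive without M4329, M4393 and M4394 (0.46 and 0.83) and without the 5 libraries high in Meg3 (0.11 and 0.19), with lowest values of -0.22 without M4569 and -0.27 without WT M4609. H2-D1, a class I antigen-presenting gene, had 0.53 (unadjusted p = 0.0170). Neurotrophins and their receptors had 5 of 9 above 0 and a median of 0.05, which turned to -0.03 without WT M4545 and -0.08 without the 5 libraries high in Meg3 and was 0.21 without M4329, M4393 and M4394. Choroid plexus genes had 2 of 8 above 0 and a median of -0.37, which was -0.06 without M4329, M4393 and M4394 and -0.63 without M4393. Ttr, the transthyretin of choroid plexus, was at 228 cpm in WT M4394 and 231 in WT M4545 and at 1.36 to 14.0 in the other 4 WT libraries, against 2.79 to 37.1 cpm in HOM, so that 2 libraries set the WT mean behind its log2 fold change of -2.39. Meningeal and fibroblast genes had 7 of 10 above 0 with a median of 0.08, which was -0.43 without M4393, 0.61 without WT M4329, 0.73 without M4329, M4393 and M4394 and 0.42 without the 5 libraries high in Meg3. The ependymal, blood and pituitary lists had 3, 1 and 1 genes tested, with medians of 0.08, -0.55 and -0.03 that each changed sign under an alternative.

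**Figure D3:**
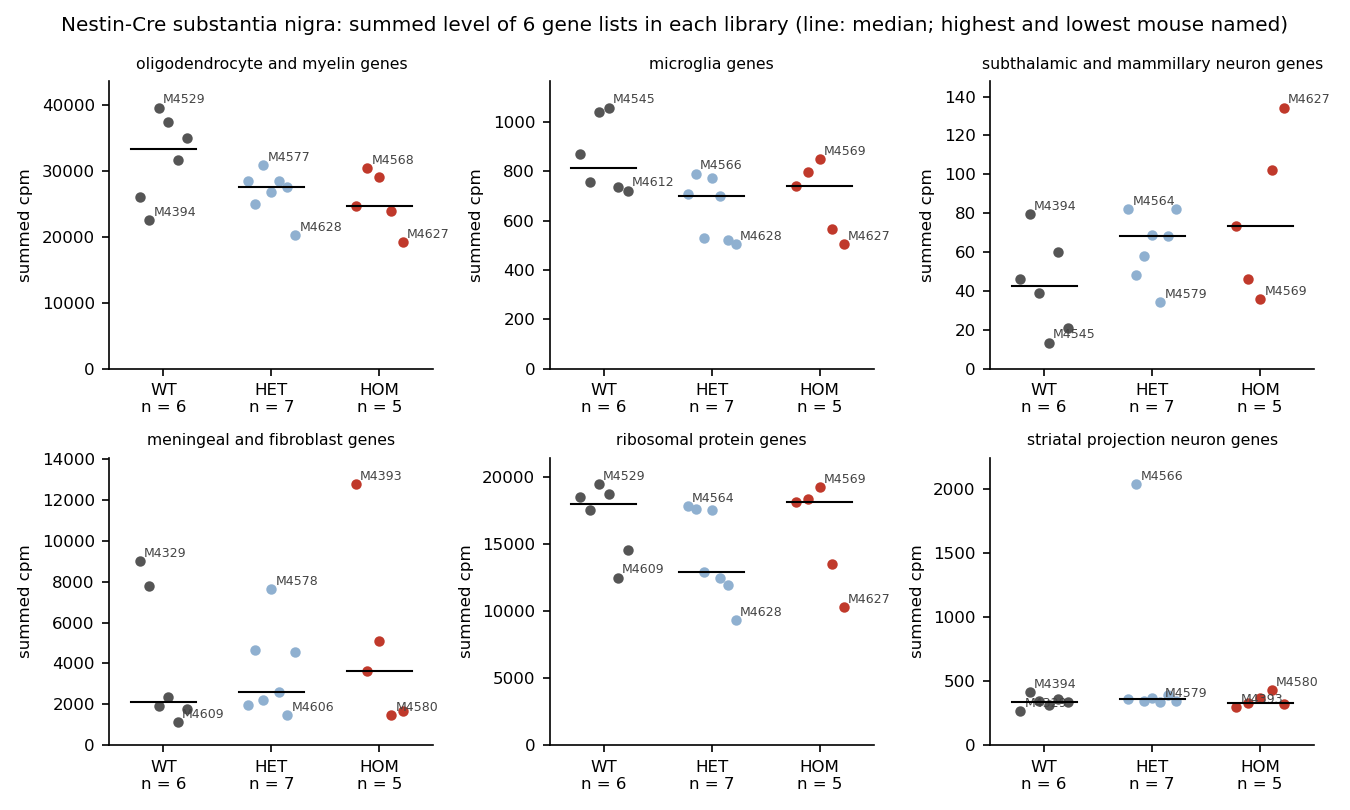
Summed cpm of 6 gene lists in each Nestin-Cre nigra library, with 1 point per mouse, a line at the group median and the highest and lowest mouse named, for WT (n = 6), HET (n = 7) and HOM (n = 5). Myelin sums run from 22550 to 39650 in WT and from 19200 to 30410 in HOM, and the highest sum of meningeal genes is that of HOM M4393, the highest of striatal genes that of HET M4566, and the lowest of ribosomal genes that of HET M4628 (9347).

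Near Gdnf on chromosome 15, where genes are inherited together with the targeted allele, 48 of 70 genes within 10 Mb were tested. Of these 9 were above and 39 below 0, with a median of -0.12 against -0.02 over all genes, negative under every alternative (-0.05 without the 5 libraries high in Meg3), and -0.00 in AAV-Cre nigra. BC037032 (0.90) and 2410089E03Rik (0.47, and 0.04 without the 5 libraries high in Meg3) had an unadjusted p under 0.05. They were 2 of 48 genes, against 2.03% of all genes higher at that p, and 0 were lower, against 2.73%. BC037032 passed the filter through HOM and HET libraries and no WT library, which favours a count as higher, so the share is a description only. Selenop, a selenium carrier and the most abundant of the list, averaged 928.1 cpm in WT and 742 in HOM. Genes for ribosomal proteins (81 of 86 tested) had 6 above and 75 below 0 with a median of -0.13, and genes of the respiratory complexes (79 of 81) had 9 above and 70 below 0 with a median of -0.11. Without M4627 and M4628 both medians were 0.00, with splits of 43 above to 38 below and 42 to 37. Without the 5 libraries high in Meg3 they turned to 0.12 and 0.14, with 76 above to 5 below and 77 to 2, and the lowest values were -0.21 without WT M4609 and -0.20 without M4569. Ribosomal protein counts summed to 12510 to 19490 cpm in WT and to 10300 (M4627), 13530 (M4580), 18150 (M4393), 18390 (M4568) and 19290 cpm (M4569) in HOM. Fold changes also shifted with transcript length, from a median of -0.06 in the shortest quartile of genes through -0.02 and -0.01 to 0.01 in the longest, and the part of length in the list medians was not tested.

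Some genes were near 0 in some mice and well expressed in others of the same genotype. Tmem181c-ps, BC002163 and Gm8909 were picked for such differences between mice once their values were known. Alad, near 0 in no HOM or WT library, was also picked after its values were seen. Tmem181c-ps, a pseudogene on chromosome 17, was at 0.925, 0.405 and 0.759 cpm in WT M4529, M4609 and M4612, at 11.9 to 16.8 in the other WT libraries and at 12.2 to 34.7 in HOM. BC002163, a respiratory complex pseudogene on chromosome 4, was at 28.9 cpm in WT M4329 and at 35.8, 21.3 and 19.2 cpm in HOM M4569, M4580 and M4627, and at 0.46 to 1.96 in the rest. Gm8909, an MHC-like gene on chromosome 17, had 0 counts in all WT libraries and was at 2.61 cpm in M4568, 1.35 in M4580 and 0.0836 in M4393 among HOM. Alad, an enzyme of haem synthesis close to Hdhd3 on chromosome 4, was at 25.5 to 33.1 cpm in WT and at 25.3, 66.3, 38.7, 44.8 and 56.8 cpm in M4393, M4568, M4569, M4580 and M4627. Every HOM library but M4393 lay above the WT range, with a log2 fold change of 0.61 (unadjusted p = 0.00208, adjusted p = 0.802). The strain background was mixed, and the part of inherited differences unlinked to Gdnf was not tested.

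The same contrast was tested in AAV-Cre nigra, in mice aged 5 to 7 months that received Cre in the striatum at 3 to 5 months, to see how far the values carry to other animals of the allele. There 0 of 14813 genes passed in edgeR's quasi-likelihood test (1109 at an unadjusted p under 0.05, 218 in the likelihood ratio test). Of the 20 genes with the lowest p in Nestin-Cre nigra under the conditions on level and side, 15 had the same sign there, against 70.6% of the 1592 genes tested in both that met these conditions and 59.6% of all 14646 tested in both. Among the 20, 1 gene had an unadjusted p under 0.05, BC037032 (0.48). The difference of the HOM effect between the models passed for 0 of 15094 genes (630 at an unadjusted p under 0.05, 181 in the likelihood ratio test). For Itgam the AAV-Cre value was -0.10 and the difference -0.55 (unadjusted p = 0.00327, adjusted p = 0.928), for Akap9 -0.13 and 0.51 (unadjusted p = 0.000187, adjusted p = 0.928), and for Cldn11 0.06 and -0.49 (unadjusted p = 0.0120, adjusted p = 0.928). Age and the route of Cre differ between the models along with it and cannot be told apart from it.

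Within the Nestin-Cre mice, 10 of the 11 also gave a striatal and 9 a prefrontal library. The HOM effect in nigra differed from that in STR for 0 of 15242 genes (311 at an unadjusted p under 0.05, 57 in the likelihood ratio test) and from that in PFC for 0 of 15163 genes (339 and 56). With mouse as a block in the fit the counts were 0 for both, with 415 and 252 genes at an unadjusted p under 0.05. In the fit without block, which takes libraries of the same mouse as independent, the HOM effect on Dkk2 in nigra exceeded that in STR by 1.98 (unadjusted p = 0.000286, adjusted p = 1.00). With the block it was 2.08 (unadjusted p = 0.00167). Itgam had a log2 fold change of -0.11 in STR and -0.30 in PFC. Without block its difference was -0.53 from STR (unadjusted p = 0.0159) and -0.32 from PFC (unadjusted p = 0.0659). With the block these were -0.52 (unadjusted p = 0.0134) and -0.22 (unadjusted p = 0.184). In HET mice, which share the WT libraries, 0 genes passed against WT (1248 at an unadjusted p under 0.05, 261 in the likelihood ratio test). Values of HET and HOM against these WT libraries were 0.64 and 0.58 for Hdhd3, 0.88 and 1.57 for Dkk2, and -0.39 and -0.62 for Lair1. HOM against HET, which does not use WT, gave 0 genes (317 at an unadjusted p under 0.05).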

How the data were processed

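Libraries were made from mRNA with strand information and read from 1 end over 75 bp. The table deposited by the authors gives a raw count for each gene and library, made with bcl2fastq 2.20.0.422, STAR 2.5.2b (genome mm10) and featureCounts 1.5.1. Groups came from the labels, and 1 library was left out for conflicting genotype labels.

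All 3 genotypes of Nestin-Cre nigra were fitted together in R 4.3.3 with edgeR 4.0.16 and limma 3.58.1: a minimum of 1 cpm in 3 or more libraries, TMM scaling, estimateDisp, glmQLFit with the trended dispersion in legacy mode, and glmQLFTest, two-sided, adjusted by Benjamini-Hochberg over all genes tested and called under 0.1. The fit had 15 residual degrees of freedom, a biological coefficient of variation of 0.228 and normalization factors of 0.957 to 1.05. A standard error is the size of a log2 fold change divided by the root of its F. Levels are plain cpm. Gdnf failed the filter and was tested by a two-sided exact permutation of cpm over libraries.

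Named genes are Gdnf, the genes called, the 20 with the lowest p under the conditions given for them, up to 4 members by WT level of the GDNF, dopamine, transcription factor and other dopamine neuron lists, and up to 3 by p of each list of at least 5 tested genes that differed from all genes by a median of 0.2 or with 80% of members on 1 side. A few genes under these rules are not reported here. Further genes named for their lists were picked with their values in view. The members and lists were chosen with earlier results of these data known. Lists were described by counts and medians without a test. Alternatives were another test, scaling, filter and threshold, DESeq2 1.42.0, other libraries in the fit, leaving out each library, and mouse as a block in the fits of 2 regions.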

Additional observations from a re-analysis of the deposited data

Results flagged for a closer look

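Single libraries stood far from the rest of their group in 12 of 219 groups of values tested (5.48%), and chance alone marks about 1 in 20. Among WT nigra libraries, M4609 had 1557 cpm of GDNF family genes summed, with the nearest library at 1266. WT M4394 had 5.74 cpm of noradrenaline neuron genes (nearest 0.177) and 22.1 cpm of blood genes (nearest 9.75). Among HOM libraries, Arhgap6 was at 22.5 cpm in M4580 (nearest 16.1), Dock10 at 147 cpm in M4568 (nearest 112.5) and Sox6 at 35.9 cpm in M4568 (nearest 30.2).

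Among HET libraries, M4566 had Gdnf at 1.66 cpm (nearest 0.667) and 2038 cpm of striatal projection neuron genes (nearest 392.4). HET M4577 had 328.4 cpm of thalamic genes (nearest 164.7), and M4579 had 300.9 cpm of choroid plexus genes (nearest 129.9) and 14.4 cpm of blood genes (nearest 8.26). HET M4628 had 1282 cpm of clock genes (nearest 1031). The causes were not tested.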

How the results depend on the processing

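Over the alternatives, 65 of 78 named genes kept their direction in every fit, and the median of all genes stayed between -0.03 and 0.00. Many of the 78 were named for a low p or for HOM libraries on 1 side of the WT mean, which makes a turn of direction less likely. The stricter threshold leaves fold changes as they were. Leaving out M4329, M4393 and M4394 together, M4627 and M4628 together, the 5 libraries high in Meg3 together, or HET M4566 was chosen after seeing the data. The 0 genes called became 141 by the likelihood ratio test, 1 by DESeq2, 2 with all 3 regions in 1 fit, where libraries share mice, and 1 without M4329, M4393 and M4394 (Itgam, -0.79, adjusted p = 0.00739), and stayed 0 without the 5. Leaving out 1 library gave 0 to 1 (1 without WT M4329 or M4394). The likelihood ratio test gave 57 for nigra against STR, 56 against PFC, 181 between the models and 218 in AAV-Cre nigra. With the replicate block, mouse as a paired term, both region comparisons stayed at 0. HOM and WT nigra share 0 mice, so their contrast could not be paired. The cause was not tested.

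The Gdnf log2 ratio was 0.82, with 0.73 to 0.89 leaving out 1 library, 0.69 with M4575, 0.83 without M4329, M4393 and M4394, 0.78 without the 5 (exact permutation p = 0.0238), and 0.76 without filter (adjusted p = 0.777, likelihood ratio test 0.904).

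Reversed values of log2 fold changes were, for Ret, 0.0085 with DESeq2, 0.0086 with DESeq2 size factors, 0.011 with no filter, 0.021 with 5 cpm, 0.012 with HOM and WT alone, 0.014 with 3 regions, 0.0695 without M4627 and M4628, and a range of -0.115 to 0.143 leaving out 1 library. En1 was -0.016 with M4575 and -0.0751 to 0.146 leaving out 1. Without M4627 and M4628, Adora1 was -0.068. Leaving out 1 library, Adora1 ran from -0.0681 (without M4627) to 0.175, Ncam1 from -0.0252 to 0.152, Nr4a2 from -0.0384 to 0.323 and Dlk1 from -0.0282 to 0.295 (each lowest without M4580), and Fev from -0.0788 (without M4569) to 0.645. Without the 5 libraries high in Meg3, Th was 0.019, Ncam1 -0.097, Nr4a2 -0.11, Ebf3 -0.079, En1 -0.0052, Chrna6 0.039, Adora2b 0.18, Adora1 -0.037, Slc17a8 -0.094 and Cox6a2 -0.084. Depth, at 11958680 to 22399651 counts, limits genes of few counts such as Gdnf, with 4 to 16 per library.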

Other observations

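The nigra library of M4575, outside the comparison, had 17.3 cpm of Tmem181c-ps, 2.22 of BC002163 and 1.84 of Gm8909, beside 0.379 cpm of Gdnf and 20.9 cpm of Itgam. Gdnf lay within the WT range, and Itgam lay above the highest HOM and below the lowest WT library.

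The long non-coding RNA Meg3, made from an imprinted locus in neurons and chosen after its values were seen, had a log2 fold change of 0.82 in HOM with an unadjusted p of 0.0327 and an adjusted p of 0.802. In PFC of Nestin-Cre mice, mostly the same animals, its log2 fold change in HOM was 0.54 with an adjusted p of 0.0455 in edgeR. None of the 5 Nestin-Cre nigra libraries high in Meg3 is WT, while WT libraries of AAV-Cre nigra were at 3915 to 6165 cpm, and the labels name no batch. In the 5, ribosomal protein counts summed to 13530 cpm in M4580, 10300 in M4627, 12960 in M4577, 11960 in M4606 and 9347 in M4628, a range that also holds WT M4609 (12510) and HET M4579 (12470). The cause was not tested.

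Residuals of nigra libraries from their group means, compared across genes with the same mouse's library of another region, had correlations of -0.0904 to 0.553 in 17 mice for STR (median 0.232) and 0.0777 to 0.335 in 15 mice for PFC (median 0.168), as a description over genes, which are not independent replicates.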
